A study of Mus musculus with 2 samples.

Results

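Cajal-Retzius cells of the mouse hippocampus were picked out of a droplet single-cell RNA-seq table by the values of 10 genes. A cell was taken when Trp73 was at 1 or more, when at least 3 of Reln, Ndnf, Ebf3, Cdh4, Cacna2d2, Pik3c2g and Dach1 were at 2 or more, and when Gad1 plus Gad2 came to at most 2. The rule found 170 of 15930 cells, 63 of 7094 from wild-type mice and 107 of 8836 from knock-in mice. The study compared mice of strain C57Bl.6/J homozygous for the knock-in allele Pigv341E with wild-type controls. Pigv encodes a mannosyltransferase that builds the glycosylphosphatidylinositol (GPI) anchor, and the title of the study names the Eph and Abl1 pathways. For each genotype, 8 hippocampi of 4 mice were taken apart mechanically at low temperature, and their cells became 1 pooled library. With 1 library per genotype no comparison has a replicate, no test was run, and a difference between genotypes cannot be told apart from a difference between libraries. The age of the mice is not given in the sources used here.

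Cajal-Retzius cells are early-born glutamatergic neurons of the outermost layer of the cortex and of the hippocampal fissure. They secrete reelin, a large extracellular protein that guides the placement of migrating neurons through the receptors Vldlr and Lrp8 and the adaptor Dab1 in the receiving cells. Most of them die after birth, and those of the hippocampus persist longer than those of the neocortex. Cells that come from the cortical hem express Trp73, a relative of p53, together with the homeobox genes Lhx1 and Lhx5.

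Among wild-type cells 0.888% were chosen (exact 95% Clopper-Pearson interval 0.683 to 1.13), and among knock-in cells 1.21% (0.993 to 1.46). The intervals overlapped, and they cover the counting of cells only, not the variation between mice or dissections. Of the 170 members 3 had exactly 3 of the 7 genes at 2 or more. All 7 genes were at 2 or more in 10 wild-type and 61 knock-in members. Of the 7 genes Pik3c2g was at 2 or more in the fewest wild-type members, 14, against 74 knock-in members. Just inside the limits, the 14 members with Trp73 at 1 had a median Reln value of 41.5, and the 3 members with exactly 3 of the 7 genes had a median of 0. Just outside, 8 cells with Trp73 and exactly 2 of the 7 genes had a median Reln of 0.5, and 54 cells with 3 or more of the 7 genes but no Trp73 had a median Reln of 2.

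Signs of mixed droplets were present. At least 3 markers of another cell type stood at 2 or more in 15 of the 63 wild-type members (23.8%, 14 to 36.2) and in 30 of the 107 knock-in members (28.0%, 19.8 to 37.5). These cells had a median of 4260 (wild-type) and 3469.5 (knock-in) detected genes, against 2575.5 and 2942 in the remaining members. Scrublet, which scores likely doublets, called 1 wild-type and 7 knock-in members. These were 1.59% and 6.54% of members, against 0.853% and 2.31% of all other cells of the same libraries. The 2 libraries shared 28 cell barcodes in all, and no barcode was a Cajal-Retzius cell in both. Values without the cells holding 3 markers of another type (mixed cells), a comparison added after seeing the data, are given for each named gene that was past 2-fold only with them.

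All values are depth-corrected whole numbers as deposited. A level is the total of a gene in a group of cells per 10000 of the total of all genes in that group. Levels serve to set groups of cells side by side for 1 gene, not genes side by side. The chosen cells had median totals of 8196 (wild-type) and 8354 (knock-in), with 2613 and 2991 detected genes. After every cell was thinned to a total of 4800 the medians were 1996 and 2092 genes. Transcripts of the mitochondrial genome had a summed level of 36.2 in wild-type and 72.9 in knock-in members, and of 34.6 and 51.5 in all other cells of the same libraries.

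The genes of the rule describe the choice and are no finding. Reln, the gene of reelin, had a median of 45 per wild-type member (0 to 131) and 62 per knock-in member (0 to 219). Trp73 had medians of 5 (1 to 15) and 7 (1 to 25), and it was nearly absent from the comparison groups, with levels of at most 0.0354 in interneurons, granule neurons and pyramidal neurons of either library against 6.25 and 8.63 in the chosen cells. Ndnf, which encodes a secreted neuronal protein, had medians of 9 and 10. Cdh4 (R-cadherin) had medians of 11 and 13, the calcium channel subunit gene Cacna2d2 of 5 and 6, the transcription factor genes Ebf3 of 3 and 4 and Dach1 of 10 and 14. The values of single cells overlapped between the libraries for each of these genes. Pik3c2g, which encodes a class II phosphoinositide 3-kinase, was the exception among the rule genes in how far its values lay apart, with a median of 0 in wild-type and 5 in knock-in members.

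**Figure D1:**
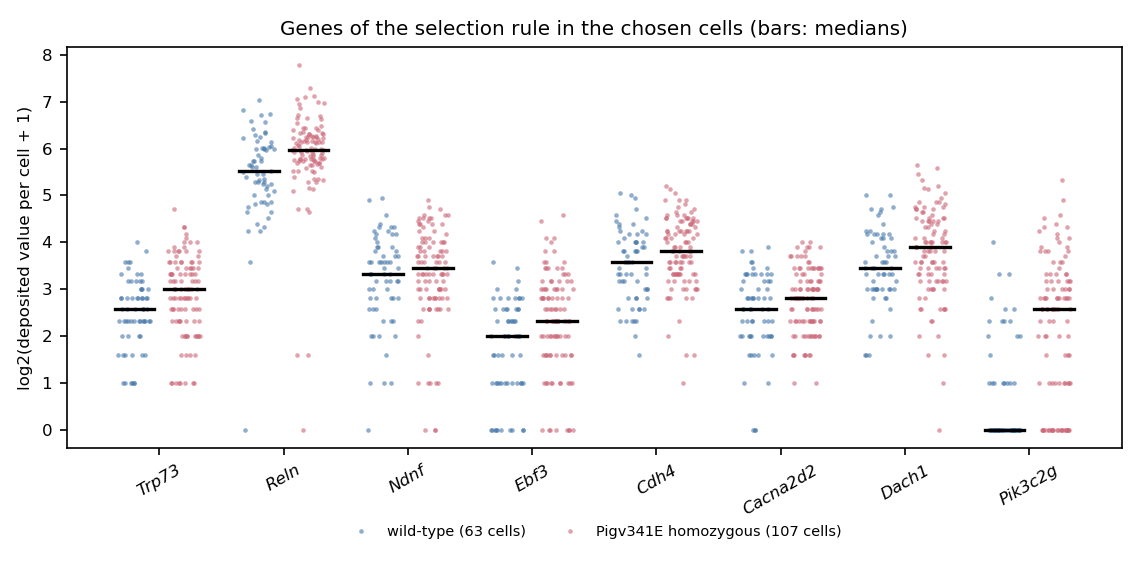
Values of 8 genes of the selection rule in every chosen cell, as log2(deposited value + 1), with 63 wild-type cells in blue, 107 knock-in cells in red and black bars at the medians. The values of both libraries overlap for all 8 genes, and the median of Pik3c2g is 0 in wild-type and 5 in knock-in cells before the log.

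Of the rule genes, Trp73 and Reln define the cells, and Pik3c2g differed most between the libraries. For this reason the sequences upstream of the listed starts of these 3 genes are shown. They are the 250 bases before each transcription start in the RefSeq table of GRCm38.p6, read 5′ to 3′ on the gene's strand. Capitals mark GC boxes (GGGCGG) and TATA boxes (TATAAA) on either strand. RefSeq lists 2 starts each for Trp73 and Pik3c2g, and the data do not tell which start was used.
Reln, chr5:22344706-22344955, minus strand: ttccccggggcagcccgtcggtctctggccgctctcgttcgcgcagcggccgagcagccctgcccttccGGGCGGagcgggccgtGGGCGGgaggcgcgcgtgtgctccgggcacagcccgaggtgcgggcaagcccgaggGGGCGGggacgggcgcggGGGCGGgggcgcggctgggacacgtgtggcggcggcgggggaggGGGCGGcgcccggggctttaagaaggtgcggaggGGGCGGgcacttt
Trp73, chr4:154139876-154140125, minus strand: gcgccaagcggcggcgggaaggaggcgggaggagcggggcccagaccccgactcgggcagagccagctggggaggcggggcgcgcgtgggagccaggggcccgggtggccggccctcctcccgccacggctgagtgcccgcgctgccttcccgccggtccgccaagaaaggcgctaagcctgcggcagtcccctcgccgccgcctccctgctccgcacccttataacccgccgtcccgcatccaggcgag
Trp73, chr4:154097174-154097423, minus strand: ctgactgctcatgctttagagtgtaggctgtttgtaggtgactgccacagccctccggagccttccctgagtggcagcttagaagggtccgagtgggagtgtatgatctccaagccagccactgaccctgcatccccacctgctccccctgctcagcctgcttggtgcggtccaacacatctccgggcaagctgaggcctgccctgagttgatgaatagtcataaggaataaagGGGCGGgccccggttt
Pik3c2g, chr6:139613822-139614071, plus strand: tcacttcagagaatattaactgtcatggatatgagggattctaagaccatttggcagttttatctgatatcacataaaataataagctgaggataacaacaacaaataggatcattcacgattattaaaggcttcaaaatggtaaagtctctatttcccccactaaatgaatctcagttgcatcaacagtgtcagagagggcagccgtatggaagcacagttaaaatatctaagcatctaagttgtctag
Pik3c2g, chr6:139841195-139841444, plus strand: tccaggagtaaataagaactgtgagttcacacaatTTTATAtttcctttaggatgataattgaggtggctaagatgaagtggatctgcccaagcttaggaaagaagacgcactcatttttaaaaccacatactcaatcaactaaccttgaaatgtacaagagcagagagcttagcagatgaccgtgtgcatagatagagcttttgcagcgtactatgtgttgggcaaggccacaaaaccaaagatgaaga

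The Reln window had a GC content of 80% and 6 GC boxes. The outer Trp73 start, at the 5′ end of the gene, lay behind a window of 77.2% GC without a GC box, and the inner start behind one of 58.4% GC with 1 GC box. Both Pik3c2g windows were poor in GC, at 36% and 40%. They lie inside the GENCODE span of the gene, 139587221 to 139969284 on the plus strand. Neither window is thus the sequence before the 5′ end of that span. A GC box stood in 32.7% of the 32851 RefSeq windows of the same length and a TATA box in 12.4%. These matches describe the letters of the windows and do not show that a factor binds there.

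Markers that the rule did not use were set beside the label. Lhx1, a homeobox gene of hem-derived Cajal-Retzius cells, was above 0 in 26 of 63 wild-type members (41.3%) and 54 of 107 knock-in members (50.5%). In granule neurons it was above 0 in 0 of 1241 wild-type cells, which allows up to 0.297% by the exact interval, and in 0.0840% of knock-in cells. In interneurons Lhx1 was above 0 in 2.68% of wild-type and 5.70% of knock-in cells. That group held 5.97% and 18.7% of the Lhx1 sum of its library. The chosen cells, which held 0.856% and 1.16% of all values of their libraries, held 77.6% and 62.7% of all Lhx1. Lhx5 was above 0 in 38.1% and 49.5% of members, which held 68.5% and 68.6% of its sum. Interneurons held 18.5% and 19.0% of the Lhx5 sum. Nhlh2, a helix-loop-helix gene of young neurons, was above 0 in 15.9% and 26.2%, with 44.1% and 58.5% of its sum in the chosen cells. Slc17a6, the vesicular glutamate transporter VGLUT2, had levels of 1.5 and 1.14 against at most 0.151 in the 3 groups of neurons. The chosen cells held 12.2% and 11.6% of the Slc17a6 sum, and the far more numerous pyramidal neurons 33.1% and 34.0%.

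The other textbook markers did not all stand apart. Calb2, the calcium-binding protein calretinin, was above 0 in 19.0% of wild-type and 9.35% of knock-in members, and Cxcr4, the receptor through which meningeal Cxcl12 guides these cells, in 6.35% and 8.41%. Ebf1 had levels of 0.259 and 0.235 against 0.286 and 0.386 in all other cells, and Ebf2 levels of 0.0739 and 0.160 against 0.0581 and 0.0735. Of the 8 markers outside the rule, Lhx1, Lhx5 and Slc17a6 thus stood far above the 3 groups of neurons. Nhlh2 had 44.1% and 58.5% of its sum in the chosen cells, and its levels in those groups are not given here. Ebf1 was lower and Ebf2 higher in the chosen cells than in all other cells. Both genes were far below a level of 1, and the wild-type Ebf2 levels of 0.0739 and 0.0581 were close. Calb2 and Cxcr4 were not set beside other groups of cells here. General neuronal markers were present throughout, since at least 3 of 8 stood at 2 or more in 62 of 63 wild-type members and in all 107 knock-in members. Of 11 interneuron markers, 3 were at 0 in the wild-type members (Slc32a1, Lhx6 and Vip) and 1 in the knock-in members (Lhx6). Their summed level was 2.74 and 2.75 against 15.8 and 15.8 in all other cells, and the limit on Gad1 and Gad2 in the rule selects against interneurons.

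Reln at 2 or more is among the criteria of the rule, so its share in the chosen cells is a description that the choice partly fixes. They held 58.8% of the summed Reln values in wild-type and 62.8% in knock-in. Interneurons, which also make reelin in the adult, held 21.3% and 20.3%. Of 149 wild-type interneurons 55.0% had a Reln value above 0, and of 316 knock-in interneurons 51.9%, against 98.4% and 99.1% of the chosen cells. In oligodendrocytes, taken as cells without reelin expression, the share above 0 was 3.7% and 7.6%, with median totals per cell of 8072 and 8136.

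Transcripts outside the rule were concentrated in the chosen cells too. Of 21884 genes with a summed value of at least 20 in each library, 30 had at least 25% of that sum in Cajal-Retzius cells of both libraries, and 22 of those were not in the rule. Mab21l3 had 76.3% and 78.3% of its sum there, the inwardly rectifying potassium channel gene Kcnj5 69.6% and 63.7%, and Lhx1os, the transcript next to Lhx1, 64.3% and 60.0%. The neurexophilin gene Nxph4 had 57.1% and 55.0%, and Ecel1, an endopeptidase-like gene, 50% and 35.6%. Cd274, which encodes the immune checkpoint ligand PD-L1, had 42.2% and 51.3%. Mab21l3, Kcnj5, Nxph4, Ecel1 and Cd274 were chosen here after their values had been seen.

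Genes that led in the chosen cells were taken as those at a level of 1 or more and at least 4-fold above interneurons, granule neurons and pyramidal neurons in both libraries, with 0.1 added to each level. These groups were taken by marker rules and held 465, 2432 and 3843 cells. Of 1703 genes with that level, 38 led (2.23%), 30 of them outside the rule. Because the same cells were chosen by their expression, this is a description and not a test. Without the cells holding 3 markers of another type 45 genes led, 37 of them shared with the 38.

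Tmem163, which encodes a zinc transporter, had levels of 14.9 in wild-type and 14.8 in knock-in members against 0.259 to 0.601 in the 3 groups of neurons of both libraries, at least 21.4-fold with 0.1 added to each level. Eln, the gene of the extracellular matrix protein elastin, had levels of 2.98 and 3.92 against at most 0.160. Diablo, a mitochondrial protein that promotes apoptosis by binding its inhibitors, had levels of 4.14 and 7.70 against at most 0.346. The zinc transporter and elastin genes thus stood above all 3 groups of neurons in each library, and so did Diablo, whose log2 ratio between the libraries was 0.88 in the chosen cells and -0.01 in all other cells. Plekha7, a gene of adherens junctions, had levels of 7.82 and 7.30 against at most 0.703. Thsd7b had levels of 21.7 and 23.2 against at most 3.16.

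The other named leading genes were of several kinds. The angiopoietin gene Angpt1 had levels of 1.63 and 2.55 against at most 0.336. Lrig3, a leucine-rich repeat gene, had 1.79 and 2.21 against at most 0.159, Eya2, a transcriptional coactivator with phosphatase activity, 1.40 and 1.46 against at most 0.119, and the RNA-binding protein gene Rbms1 7.28 and 7.61 against at most 1.16. Igsf9, Gm29683, E130114P18Rik, Gm4681, Fkbp9 and Fndc3b completed the 15 named leading genes outside the rule. Of the 38 leading genes, Pik3c2g and Gm29683 differed 2-fold between the libraries. The log2 ratio of Gm29683 was 1.01, and it was 0.95 without the mixed cells, 0.99 without Scrublet calls, 0.97 with Trp73 at 2 or more and 0.87 with 1 added to both levels.

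**Figure D2:**
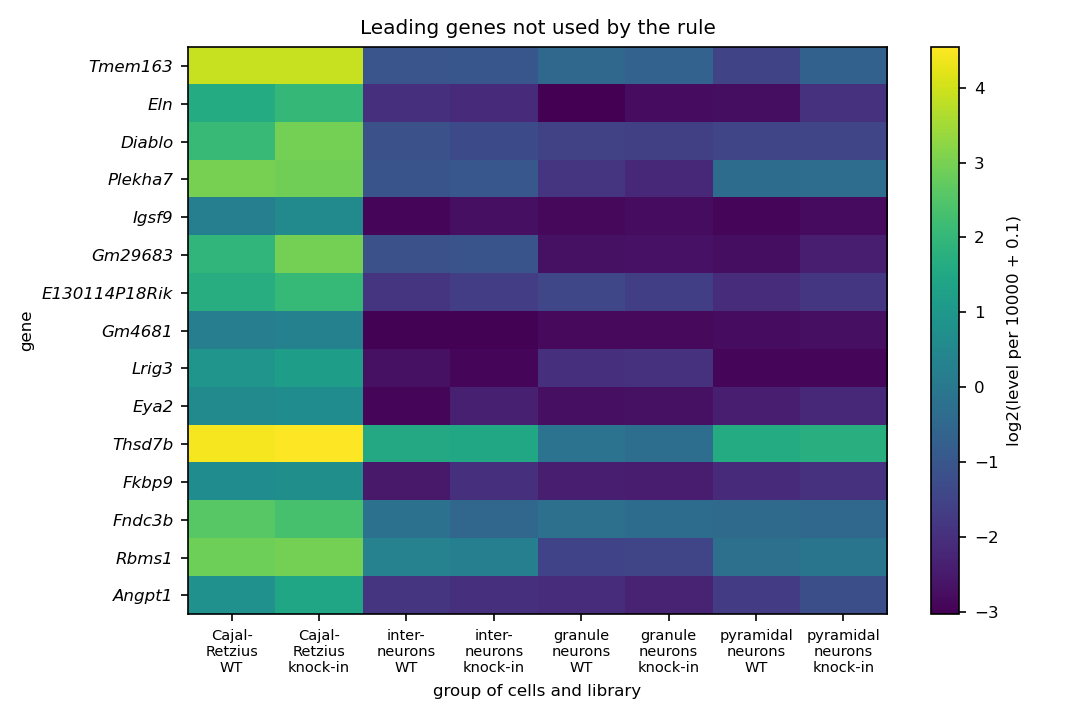
Levels of the 15 named leading genes outside the rule, as log2(level per 10000 + 0.1), in Cajal-Retzius cells, interneurons, granule neurons and pyramidal neurons of the wild-type (WT) and knock-in libraries. Tmem163 is at 14.9 and 14.8 in the chosen cells and at most 0.601 elsewhere, and each gene is at least 4-fold higher in the chosen cells of both libraries.

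RefSeq windows of 250 bases were found for 29 of the 38 leading genes. The homeodomain core TAATTA stood in windows of 3 of them, Mid1, Slc17a6 and Tmem163, and in 4.84% of all windows. The letters AGGTCA, bound by many nuclear receptors, stood in windows of 2 genes, E130114P18Rik and Mid1, and in 14% of all windows. These are counts of letters on both strands, and nothing follows from them about the factors.

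The opposite pattern was rare. Of 1298 genes at a level of 1 or more in the 3 groups of neurons of both libraries, 4 were at least 4-fold lower in the chosen cells than in each group (0.308%), a comparison added after the data had been seen. They were Zmat4 (0.499 and 0.502), the contactin-associated protein gene Cntnap5a (0.813 and 0.919), the AMPA receptor auxiliary gene Shisa9 (0.370 and 0.438) and the cadherin gene Cdh20 (0.148 and 0.278). The lowest levels of these genes in any of the other groups were 2.71, 3.78, 1.91 and 1.44. The neuron-wide RNA-binding protein gene Rbfox3, known as NeuN, had levels of 1.13 and 0.791 against 3.13 to 5.68 in the other neurons.

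Between the libraries, 2122 genes met the limits in Cajal-Retzius cells, that is a level of at least 1 and a value above 0 in at least 25% of the cells in 1 or both libraries. Of these, 23 were at least 2-fold higher in the knock-in members (1.08%) and 11 at least 2-fold lower (0.518%), together 34 (1.6%). Ratios are given as log2 of the knock-in level over the wild-type level, each raised by 0.1, which understates the ratio of low genes. The median ratio over all 2122 genes was -0.09. The size rule has no error rate, since there is no replicate. Under all 11 alternatives 3 of the higher genes (Gm14216, Hdc and Pik3c2g) and 3 of the lower genes (Abl1, Epha6 and Sec22b) were past 2-fold. The alternatives on the minimum level or share and the choice without Pik3c2g left every ratio unchanged, so they add nothing to this count.

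Of these 3 higher genes, Pik3c2g was not past 2-fold in the other cells of the hippocampus. It was at 2 or more in 14 of 63 wild-type members (22.2%, 12.7 to 34.5) and in 74 of 107 knock-in members (69.2%, 59.5 to 77.7). Thinned to a common total, 27.0% and 70.1% of members had a value above 0. The levels were 1.55 and 7.35, a log2 ratio of 2.17, and without the cells holding markers of another type 1.62 and 8.53, a log2 ratio of 2.33. In all other cells the levels were 0.0313 and 0.0378, a log2 ratio of 0.07. The added 0.1 is larger than both of these levels and holds this ratio near 0.

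The values show that wild-type members were mostly at 0 for Pik3c2g and knock-in members mostly above it, while single cells of both libraries spread up to 15 and 39. In oligodendrocytes 0.487% and 1.70% of cells had a value above 0. Pik3c2g is among the 7 genes of the rule, but the 63 and 107 cells were the same when it was left out of the choice. The share of its library sum held by the chosen cells was 30% for wild-type and 69.5% for knock-in. The gene lies on chromosome 6 of GRCm38 from 139587221 to 139969284, on the plus strand. Whether the difference belongs to the genotype was not tested, because each genotype is 1 library.

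Epha3, a receptor tyrosine kinase for GPI-anchored ephrins, was also higher in the knock-in members without reaching the 2-fold limit. It was at 2 or more in 53 of 63 wild-type members (84.1%, 72.7 to 92.1) and 105 of 107 knock-in members (98.1%, 93.4 to 99.8), with medians of 5 (0 to 22) and 9 (0 to 45). The levels were 6.56 and 12.1, a log2 ratio of 0.87, and 0.94 without the cells holding markers of another type. In all other cells the log2 ratio was -0.09. In the 3 groups of neurons Epha3 had levels of 0.993 to 3.01, so the chosen cells stood above them in each library.

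Epha6, another receptor of this family, went the other way, with medians of 3 (0 to 55) and 2 (0 to 60). It was at 2 or more in 66.7% of wild-type and 56.1% of knock-in members, and the levels were 8.61 and 3.53, a log2 ratio of -1.26. Without the mixed cells the log2 ratio was -1.42, and in all other cells -0.30. The cells with high values carried much of this level: 1 wild-type cell held 11.8% and 1 knock-in cell 18.2% of the Epha6 sum of its members. In pyramidal neurons the level was 34.9 and 25.4. The part that transcripts of pyramidal neurons in the same droplets have in the difference was not tested. Summed pyramidal markers had a level of 6.02 in wild-type and 5.71 in knock-in members against 16.3 and 16.7 in all other cells, with none of the 8 at 0.

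Of the 24 Eph receptors, ephrins and Abl kinases, 7 met the limits, 0 were higher and 2 lower, against 1.08% higher and 0.518% lower over all genes tested. The median log2 ratio of the 7 was 0.10 against -0.09 over all genes. The lower genes were Epha6 and Abl1. Epha7 had levels of 2.85 and 3.17, Epha5 of 2.01 and 2.17, Epha4 of 1.98 and 1.52, and Abl2 of 1.09 and 1.34.

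Several genes lay apart between the libraries in all cells alike. Abl1, a non-receptor tyrosine kinase, had a median of 7 (1 to 23) in wild-type and 1 (0 to 5) in knock-in members, levels of 9.91 and 1.24 and a log2 ratio of -2.90, against -2.71 in all other cells. Hdc, which encodes the histamine-forming histidine decarboxylase, had medians of 0 (0 to 2) and 9 (0 to 23), levels of 0.259 and 10.7 and a log2 ratio of 4.91, against 4.08 elsewhere. Gm14216 had a log2 ratio of 4.95 (4.10 elsewhere), Rab40b of 1.78 (1.05), Gm17660 of 1.74 (1.71) and Sec22b, a vesicle-trafficking SNARE, of -1.10 (-1.12). Of the 23 higher genes 4 were past 2-fold in all other cells too, and of the 11 lower genes 2. For these 6 genes the chosen cells went in the same direction as the rest of their library. The ratio had the same sign in all other cells, at any size, for 21 of the 23 higher genes and 6 of the 11 lower genes. A gene under 2-fold elsewhere is thus not by that alone particular to the chosen cells.

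**Figure D3:**
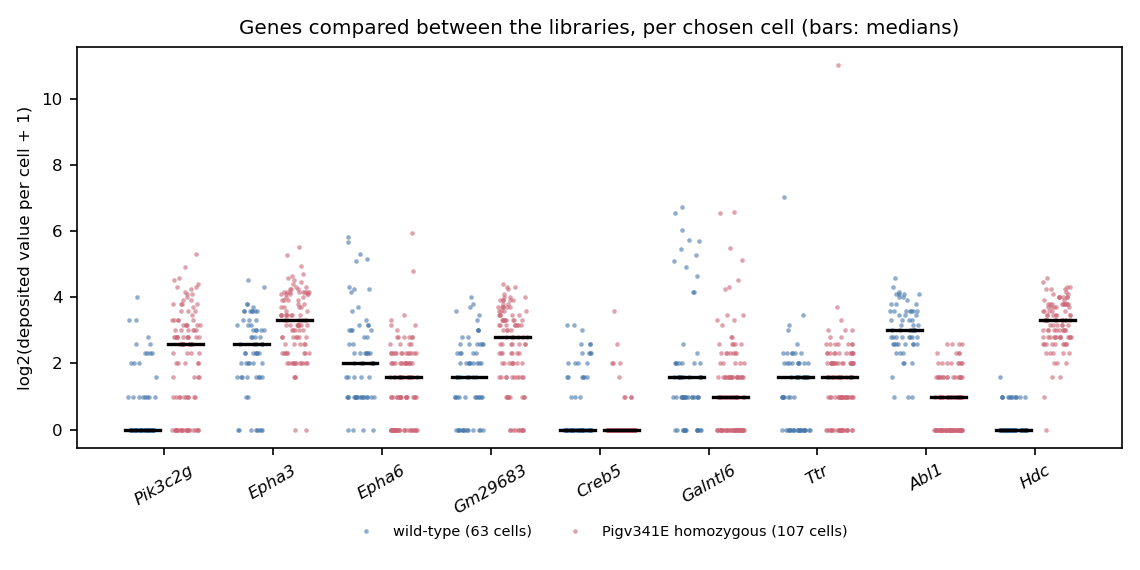
Values of 9 genes in every chosen cell, as log2(deposited value + 1), in 63 wild-type (blue) and 107 knock-in (red) cells, with black bars at the medians. Hdc separates the libraries almost fully, Abl1 is lower in the knock-in cells with some overlap, Pik3c2g and Epha3 are shifted upward in the knock-in cells with overlap, and 1 knock-in cell holds a Ttr value of 2066.

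Most of the lower genes were not past 2-fold in all other cells. Creb5, a transcription factor gene of the CREB family, was at 2 or more in 20 of 63 wild-type members (31.7%, 20.6 to 44.7) and 6 of 107 knock-in members (5.61%, 2.09 to 11.8). Its levels were 1.5 and 0.331, with a log2 ratio of -1.89 and of -0.13 in all other cells. Kcnk10, a two-pore potassium channel gene, was at 2 or more in 30.2% and 11.2% of members, with levels of 1.33 and 0.406 and a log2 ratio of -1.50 (-0.06 elsewhere). Both kept their direction without the mixed cells, at -2.19 and -1.96. Among the 3 groups of neurons Creb5 was highest in granule neurons, at 1.58 and 1.83, and it was at 4.04 and 4.05 in oligodendrocytes.

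Galntl6, of the family of polypeptide galactosaminyltransferases, had medians of 2 (0 to 104) and 1 (0 to 94), levels of 11.7 and 5.41 and a log2 ratio of -1.10. It had a level of 40.5 and 38.9 in interneurons, and 1 cell held 16.4% of its wild-type sum and 1 cell 18.6% of its knock-in sum. With at least 4 of the 7 rule genes at 2 or more, the log2 ratio of Galntl6 was -1.39. Gpc5, a glypican, had levels of 3.05 and 0.812, and its log2 ratio of -1.79 was -0.65 without the mixed cells. In astrocytes Gpc5 had levels of 68.7 and 62.7, and the summed astrocyte markers were at 4.32 and 5.08 in the chosen cells, with none of the 8 markers at 0. Hs3st4, a heparan sulfate sulfotransferase gene, had a log2 ratio of -1.09, which was -0.22 without the mixed cells, and 1 cell held 46.6% of its wild-type sum. Dtna had levels of 2.09 and 0.919 and a log2 ratio of -1.10, which was -0.77 without the mixed cells. Senp5, with levels of 1.85 and 0.866, completed the 10 named lower genes.

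Several of the higher genes rested on a few cells. Ttr, the transthyretin of choroid plexus, had medians of 2 and 2, but 1 knock-in cell with a value of 2066 held 89.2% of its sum, and the log2 ratio of 2.43 was 0.27 without the mixed cells. The complement gene C1qb, a microglial marker, had a log2 ratio of 1.18, which was 0.11 without the mixed cells. Of the C1qb sum of the members of its library, 1 wild-type cell held 65.8% and 1 knock-in cell 28.6%. Summed microglial markers were at 3.49 and 7.42 and summed choroid plexus and ependymal markers at 4.77 and 25.1, with Tmem212, Dnah12 and Ccdc153 at 0 in both libraries. Ptgds, a prostaglandin synthase of the meninges and oligodendrocytes, had a log2 ratio of 1.27 in the chosen cells, 0.94 without the mixed cells and 0.97 in all other cells.

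**Figure D4:**
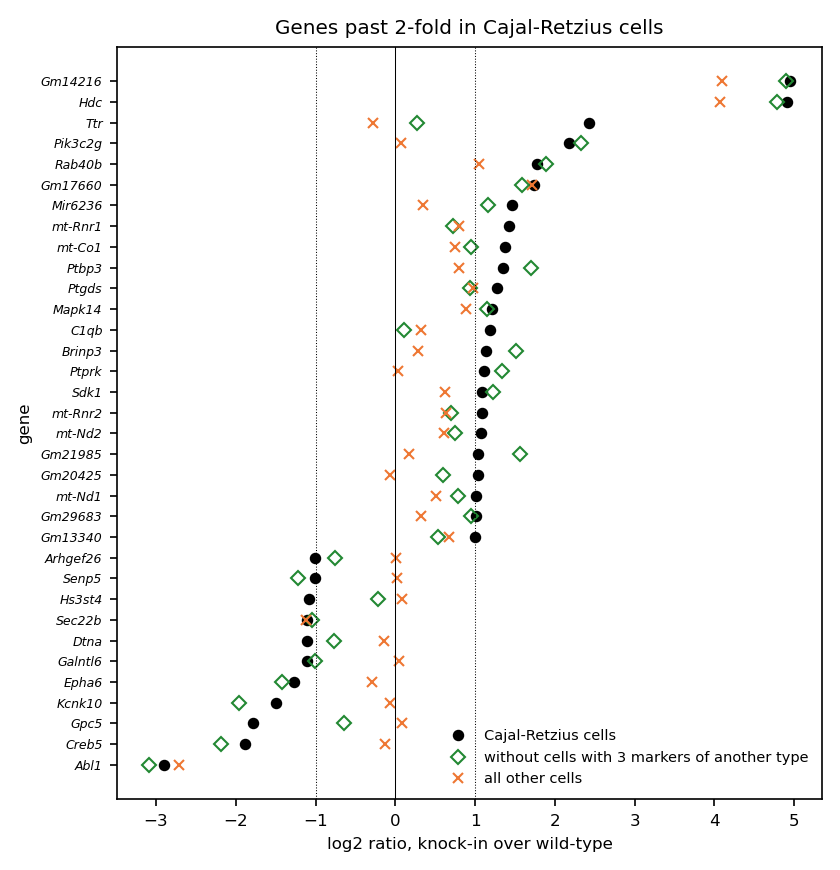
The log2 ratio, knock-in over wild-type, of the 34 genes past 2-fold in Cajal-Retzius cells (black), the same without cells holding 3 markers of another type (green diamonds) and the ratio in all other cells (orange crosses), with dotted lines at 2-fold. Ttr, C1qb, Gpc5 and Hs3st4 move inside the lines without those cells, and Pik3c2g stays at 2.33 while the other cells are at 0.07.

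Without the cells holding 3 markers of another type, 24 genes were higher (1.13% of those meeting the limits) and 22 lower (1.03%). Of the 23 genes first counted as higher 11 were among them, and of the 11 lower genes 7. Those kept as higher included Pik3c2g, Mir6236 (log2 ratio 1.46, then 1.16) and Ptbp3 (1.35, then 1.70). Ptbp3, which encodes a splicing regulator, had a log2 ratio of 0.80 in all other cells, and Mir6236 of 0.35.

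**Figure D5:**
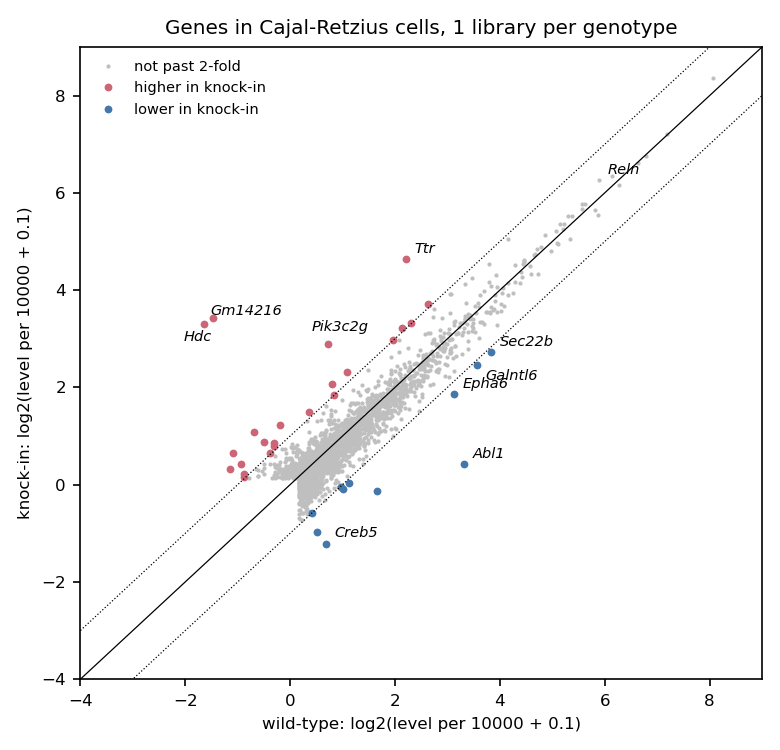
Levels of the 2122 genes that met the limits in Cajal-Retzius cells, wild-type on the horizontal and knock-in on the vertical axis, both as log2(level per 10000 + 0.1), with the line of equality and dotted lines at 2-fold. The 23 higher genes are red and the 11 lower genes blue, and Reln, at 59.1 and 77.0, is inside the dotted lines.

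Of 13 listed protein-coding genes of the mitochondrial genome 6 met the limits, and 3 were past 2-fold higher, mt-Co1, mt-Nd2 and mt-Nd1, against 1.08% of all genes tested. The median log2 ratio of the 6 was 1.00. Without the mixed cells all 3 were under 2-fold, with mt-Co1 at 0.94 and mt-Nd1 at 0.79. The levels of mt-Nd2, a subunit of respiratory complex I, were 6.12 and 13, and those of mt-Cytb, of complex III, 9.94 and 17.4. The log2 ratio of mt-Nd2 was 1.08 in the chosen cells, 0.75 without the mixed cells and 0.61 in all other cells. The ribosomal mt-Rnr1 had a log2 ratio of 1.43 in the chosen cells, 0.73 without the mixed cells and 0.80 elsewhere. The part that RNA quality or free RNA has in these values was not tested.

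The lists that follow had no member past 2-fold except where one is named. Over all genes tested 1.6% were past it, so 0 called among the 1 to 22 members of a list that met the limits is near the background and says nothing about the list. Of 29 genes of the reelin pathway 7 met the limits, 0 were past 2-fold in either direction, and the median log2 ratio was -0.05. Dab1, the intracellular adaptor of the reelin receptors, had levels of 6.51 and 4.07 in the chosen cells against 16.3 to 29.4 in the other neurons. Lrp8, the ApoER2 receptor, had levels of 0.943 and 0.930, and Vldlr of 0.111 and 0.182 against 0.277 to 0.515 in the other neurons. Pafah1b1, the Lis1 protein of the dynein complex, had levels of 3.62 and 4.02, and Nckap1 of 2.2 and 2.66. Dab1 was thus lower in the chosen cells than in each of the 3 groups of neurons.

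Of 19 listed transcription factor genes of Cajal-Retzius cells, 3 met the limits and 0 differed 2-fold. Nr2f2, the nuclear receptor COUP-TFII, had levels of 3.23 and 4.61 against at most 0.558 in the other neurons, and Emx2, a homeobox gene of the medial cortex, 0.591 and 1.12 against at most 0.0817. Lhx5 had levels of 0.684 and 1.00. Of 20 other genes known from these cells 5 met the limits and 0 differed 2-fold. Car10 had levels of 17.8 and 17.7 against 2.65 to 5.35 in the other neurons, and the transcription factor gene Nfib 16.4 and 15.2 against 4.30 to 6.90.

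Of 37 voltage-gated and HCN channel genes, 22 met the limits and 0 differed 2-fold, with a median log2 ratio of -0.16. Kcnh7, a channel of the ERG family, had levels of 48.9 and 54.3 in the chosen cells against 2.50 to 14.2 in the other neurons. Kcnb2, a delayed rectifier, had levels of 47.5 and 51.1 against 4.35 to 8.66, and the calcium channel subunit gene Cacna2d1 21.8 and 23.7 against 5.76 to 7. Kcnip4, a partner of the A-type channels, had levels of 56.5 and 49.9, within the range of 27.8 to 80.5 in the other neurons. Kcnb2 was thus among the leading genes in both libraries, and Kcnip4 was not.

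Of 18 ionotropic glutamate receptor genes 12 met the limits and 0 differed 2-fold, with a median log2 ratio of -0.16. Gria1 had levels of 15.3 and 16.5 against 15 to 21.7 in the other neurons. The NMDA receptor subunit gene Grin2a had 5.40 and 3.17 against 9.87 to 25.1, Grin2b 3.55 and 2.67 against 9.11 to 15.9, and the kainate receptor gene Grik2 1.90 and 2.00 against 6.67 to 14.3. The NMDA subunits and Grik2 were thus below every other group of neurons in each library, and Gria1 was near them.

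Of 19 genes of chloride transport and of GABA-A and glycine receptors 7 met the limits and 0 differed 2-fold, with a median log2 ratio of -0.02. Gphn, the scaffold gephyrin, had levels of 7.47 and 7.48, and Gabrg3 of 6.82 and 4.96. Slc12a5, the chloride exporter KCC2 of mature neurons, had levels of 0.259 and 0.278 against 0.908 to 1.51 in the other neurons, below the limit. Among 10 transporter genes of glutamate and GABA, 3 met the limits and 0 differed 2-fold.

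The pathway of the edited gene was sparse in these cells. Pigv was above 0 in 4 of 63 wild-type and 5 of 107 knock-in members, too few to compare, and the allele itself cannot be read from the table. Of 30 GPI biosynthesis genes 1 met the limits, Pigk, of the transamidase that attaches the anchor, with levels of 2.38 and 1.34 and a log2 ratio of -0.79 (-0.05 in all other cells). Of 46 genes of GPI-anchored proteins 16 met the limits, 0 were higher and 1, Gpc5, was lower, against 1.08% and 0.518% of all genes, with a median log2 ratio of -0.10. Gpc5 was at -0.65 without the mixed cells. Lsamp, an adhesion protein of the IgLON family, had levels of 145 and 149 against 44.9 to 77.4 in the other neurons, Opcml of the same family 34.4 and 30.6, and Mdga2 25.9 and 28.8 against 11.0 to 16.7.

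Of 24 axon guidance genes 7 met the limits and 0 differed 2-fold. Robo2, a receptor for Slit proteins, had levels of 37.2 and 40.7 against 3.57 to 8.40 in the other neurons, and the netrin receptor gene Dcc 12.8 and 15.8 against 8.18 to 10.9. Of 20 cadherin and protocadherin genes 9 met the limits and 0 differed 2-fold, with Pcdh9 at 11.2 and 10.4 against 26.3 to 86.8. Of 17 genes of survival and of the p53 family 4 met the limits and 0 differed 2-fold. The neurotrophin receptor gene Ntrk2 had levels of 9.83 and 10.1, Ntrk3 of 2.57 and 2.19, and Mdm2, which targets p53 for degradation, of 0.998 and 1.13. No immediate early gene of 15 met the limits.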

How the data were processed

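The authors deposited 1 table of 30223 genes by 15930 cells. The deposited values are treated here as a score, that is whole numbers which the authors appear to have corrected for depth before deposit, per the table's deposited name and its totals per cell of 4846 to 14501. The sequencing depth is thus unknown and no count model was used. Seurat 3.0.0 and GRCm38 are named in the submitters' processing notes without their roles, and the aligner and the filter on cells are not given in the sources used here. Library chemistry was Chromium v3 of 10x Genomics, per the labels.

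No cell was removed. Levels per 10000, log2 ratios with 0.1 added, exact Clopper-Pearson intervals (counting error only) and thinning to a total of 4800 were computed with Python 3.11.15, numpy 2.4.6, scipy 1.17.1 and pandas 2.3.3. Interneurons had Gad1 plus Gad2 at 4 or more, and granule and pyramidal neurons were taken by sets of markers without Gad1 or Gad2. Doublets were kept; Scrublet (scanpy 1.11.5, expected rate 6%) marked them for an alternative. The steps were tested on simulated data. Positions are those of GENCODE on GRCm38, matched by symbol.

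Named genes are the rule genes, 2 to 4 genes a list in order of level among those at 1 or more, the 10 genes most above and the 10 most below between the libraries, and 15 leading genes. Listed genes below a level of 1 that are named are given because they are markers or receptors of these cells. The members and lists were chosen with earlier results of these data known. No test was possible with 1 library per genotype. Alternatives were the limits of the rule, the value added, the limits on level, the weight of cells, values of 1 set to 0, the scaling and doublets; leaving out cells with 3 markers of another type was added after seeing the data.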

Additional observations from a re-analysis of the deposited data

How the results depend on the processing

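With 1 library per genotype no library could be left out. No paired analysis was possible because each genotype has 1 library and no test was run. Without cells holding 3 markers of another type, a choice made after seeing the data, the share of Cajal-Retzius cells was 0.677% in wild-type and 0.871% in knock-in cells, and 22 genes were lower in place of 11. With 1 added to both levels 4 genes were higher, 4 were lower and 15 led in the chosen cells. Without a minimum level or share of cells 222 genes were higher and 121 lower, and with a minimum level of 2 there were 14 and 6. With values of 1 set to 0, 24 genes were lower. With 8-fold in place of 4-fold 12 genes led. The split between higher and lower, 67.6% higher in the main setting, was 52.2% without the mixed cells, 55.6% without cells called by Scrublet, 54.7% with values of 1 set to 0, 50% with 1 added and 76.3% after scaling by the median ratio. The causes of these shifts were not tested. Of 374 values of single genes under the alternatives, 289 stayed past the size rule in the same direction and 0 reversed. Of the rest 60 were below 2-fold, and 25 were still 2-fold but under the limits on level or share of cells. The 289 include all values without a minimum level or share and with Pik3c2g left out of the rule. Those settings kept the same cells and ratios and could not take a gene out. The depth of the cells is unknown, so the molecules behind a value are not known.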
